A study of Mus musculus with 38 samples.

Results

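The control mouse retina was followed from postnatal day 6 (P6) to P10, the days in which photoreceptors extend their outer segments and the synapses of both plexiform layers are put together. The 9 control retinas of these ages, 5 at P6 and 4 at P10, were taken by their labels from the 38 retinas of the series. Controls carried 1 floxed Crb2 allele and the Chx10Cre transgene (Crb2 F/+ Chx10Cre+/-), on a C57BL/6J background free of the Crb1 rd8 and Pde6b rd mutations. The transgene and the floxed allele are shared by all of these retinas, and the study describes Cre levels too low to act in some cells, so a control retina may hold cells with and without a recombined Crb2 allele. Each sample was the whole neural retina, without the pigment epithelium, and none was pooled. Each control was hybridised together with 1 Crb2 cKO retina of the same age on a 2-colour Agilent array, and its own channel was used. The labels do not say that the retinas came from different animals, so p-values measure the spread between these retinas. The labelled groups were used at P10, where the hybridisation table of the study gives the same groups and its RNA table lists each retina under the other genotype.

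At P6 nearly all retinal neurons have been born and the last progenitors leave the cell cycle to become rods, bipolar cells and Mueller glia. Rods and cones then grow the outer segment, a stack of membrane discs on a modified cilium that holds the visual pigment and the enzymes of phototransduction, and build a ribbon synapse at the other end of the cell. Bipolar cells pass the signal from these synapses to the inner plexiform layer, where amacrine and ganglion cells receive it. Whole retinas were measured, so fewer cells of a type and less RNA per cell cannot be told apart in any value below.

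A value is the normalised log2 intensity of a 60-base probe, so a difference of 1 is a 2-fold change. The values of different probes depend on the probe and are not set against each other. Of the 39283 probes, 5739 rose from P6 to P10 (14.6%) and 5831 fell (14.8%) at an adjusted p below 0.05 in limma. At least 2-fold rises were found for 929 probes (2.36%) and at least 2-fold falls for 719 (1.83%). Among the 25833 probes well above background in every retina of either age, 20.8% rose and 21.4% fell. The 4 P10 values lay above the 5 P6 values without overlap for 13.2% of all probes and below them for 13.0%. The median difference of all probes was -0.0206, and the percentages give the background against which the gene lists below are read. Between control retinas of an age, log2 intensities correlated with r of 0.9829 to 0.991 across probes, which are not independent replicates. The share of features well above background was 67.3% to 71.3% in 8 of the 9 retinas and 79.8% in P10 replicate 4. P6 replicates 1 and 2 carried Cy3 on slide 3, P6 replicates 3 to 5 and P10 replicate 1 carried Cy5 on slide 4, and P10 replicates 2 to 4 carried Cy3 on slide 5. Both dyes therefore occur at both ages, in unequal shares. The slide moves with age except on slide 4, which holds 3 P6 retinas and 1 P10 retina. RNA integrity moves with age too. In the RNA table of the study no P10 retina used, in either grouping, had a higher integrity number than the lowest P6 control. What RNA integrity adds to any difference was not tested. On that slide alone 1521 probes rose and 1171 fell, 1094 and 841 of them at least 2-fold, and 19.5% of the 11570 calls were made again. The sign was the same for 11537 of the 11570, whose choice already rested on these 4 retinas too. The slide as a fixed block gave 3844 probes that rose and 3236 that fell, 1324 and 891 of them at least 2-fold, and the dye as a covariate 5981 and 6089.

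**Figure D1:**
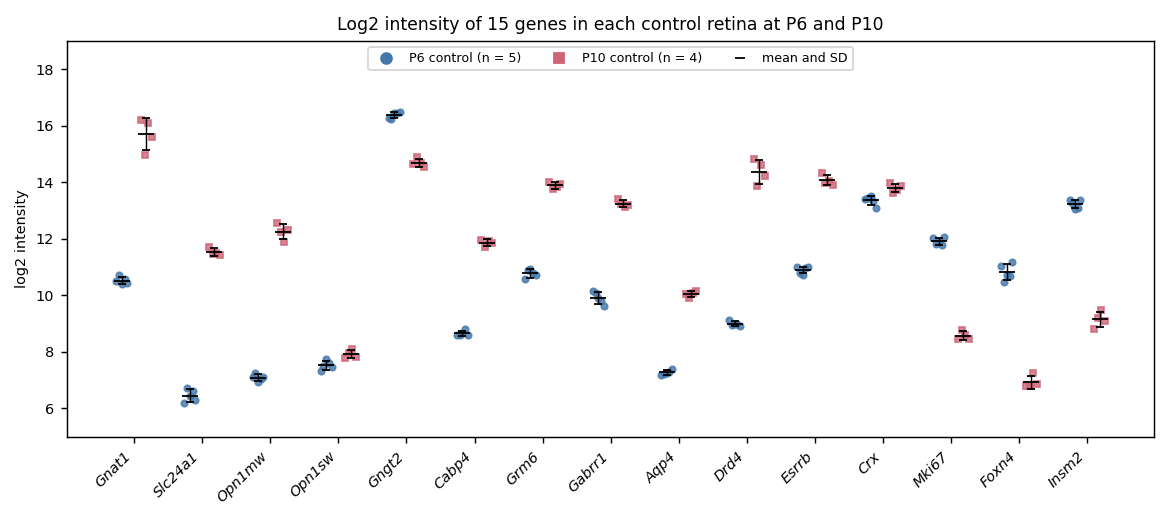
Log2 intensity (y axis) of 15 genes in each control retina, with P6 as circles (n = 5) and P10 as squares (n = 4), and bars for the mean and SD. The P10 values of Gnat1, Slc24a1 and Opn1mw lie more than 3 log2 units above those of P6, while Opn1sw and Crx differ by less than 1 and Gngt2, Mki67, Foxn4 and Insm2 are lower at P10.

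The 12 largest rises, by a rule on size, separation and signal, included Drd4, Gnat1, Opn1mw, Slc24a1, Lrtm1, Kcnj14, Pcp2, Gng13, Guca1b, Pde6a and Il33. Each gene was represented by its brightest probe. A probe of Trpm1 that does not represent the gene, described below, rose by 5.76 on the log2 scale, more than any of these. Drd4, a dopamine receptor of photoreceptors, measured 9.14, 8.96, 8.97, 8.99 and 8.91 at P6 and 14.81, 13.85, 14.61 and 14.21 at P10. No P10 retina came near the P6 range, in which the 5 retinas lay close together. The log2 difference was 5.38 (standard error 0.16, adjusted p = 7.66e-14 in limma), 41.5-fold, and from P3 to P6 the same gene had differed by 0.73. With the P10 groups of the RNA table Drd4 rose 27.4-fold. Its probe lies at chr7:148480683-148480742 of mm9. Lrtm1, which encodes a leucine-rich repeat membrane protein, rose 18.6-fold, and Kcnj14, an inward rectifier potassium channel, rose 16.4-fold on its brighter probe. The size of a fold from a dim P6 level depends on the background correction, and with an offset of 50 in place of 0 the rise of Kcnj14 was 10.3-fold. Il33, a cytokine of the interleukin-1 family that Mueller glia express, measured 7.98, 5.92, 6.14, 6.16 and 6.003 at P6 and 9.85, 9.51, 10.002 and 10.10 at P10. P6 replicate 1 stood above the other P6 retinas and below every P10 retina, and the log2 difference was 3.42 (adjusted p = 1.39e-07 in limma), or 2.73 with that offset.

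Genes of rod phototransduction rose almost as a whole. Of the 21 genes of this list, 20 rose, 0 fell and Rgs9 did not pass the test. At least 2-fold rises were found for 17, and 18 did not overlap between the ages. The median log2 difference of the list was 1.82, against -0.0206 for all probes, and all 21 were well above background in every retina of at least 1 age.

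Gnat1, the alpha subunit of rod transducin, measured 10.49, 10.72, 10.40, 10.56 and 10.44 at P6 and 16.18, 14.95, 16.08 and 15.59 at P10. Its P10 values were more spread than those of P6, with replicate 2 the lowest, and all were far above the P6 range. Gnat1 rose 36.2-fold with a log2 difference of 5.18 (standard error 0.19, adjusted p = 9.65e-13 in limma). Slc24a1, the sodium-calcium-potassium exchanger of the rod outer segment, measured 6.18, 6.71, 6.43, 6.63 and 6.29 at P6 and 11.72, 11.46, 11.51 and 11.42 at P10. Neither group had a retina apart from its others, and the rise was 33.8-fold (adjusted p = 1.34e-12 in limma), 20.8-fold with an offset of 50 and 52.3-fold from the processed intensities of the Agilent software.

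The catalytic phosphodiesterase subunit Pde6a rose 12.4-fold and Guca1b, a calcium sensor that activates guanylate cyclase, 12.8-fold. Recoverin (Rcvrn), a calcium sensor of photoreceptors, rose 6.75-fold, the channel subunit Cnga1 3.75-fold and arrestin (Sag) 3.53-fold. Gucy2f, a guanylate cyclase of photoreceptors, measured 7.85, 6.35, 6.35, 5.81 and 5.91 at P6 and 9.40, 8.95, 8.84 and 8.97 at P10. P6 replicate 1 was high among the P6 retinas and lower than all P10 retinas, and only 3 of the 5 P6 retinas were well above background. The log2 difference of Gucy2f was 2.59 (adjusted p = 8.13e-06 in limma, two-sided exact permutation p = 0.0159), or 1.97 with an offset of 50. Phosducin (Pdc), which binds the beta-gamma subunits of transducin, was already bright at P6 and rose by 0.51 (adjusted p = 0.00105 in limma). For a gene whose 9 values separate fully by age, the exact permutation test can give no p below 0.00794, which is 1 of 126 arrangements.

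Promoters of the rod genes were searched for TAATCC, the core letters of the site bound by the photoreceptor homeodomain protein CRX, on both strands of the 250 bases before the start site. RefSeq promoters of GRCm38.p6 were found for 14 of the 21 genes, and 8 of these 14 (57.1%) held the letters, against 6.25% of all 32851 promoters in the table. For the cone list 1 of 9 promoters held them, for the outer segment list 2 of 14 and for the ribbon synapse list 6 of 32 (18.8%). The cell cycle list, which fell, had them in 0 of 25. The 4 genes of the rod list shown here rose most among those whose promoter holds the letters. They lie at chrX:142196937-142197186 on the minus strand for Gucy2f, chr5:72642753-72643002 on the minus strand for Cnga1, chr1:87803430-87803679 on the plus strand for Sag and chr9:75306038-75306287 on the plus strand for Gnb5. Each is written 5′ to 3′ toward the gene, with TAATCC or its complement GGATTA in capitals.
Gucy2f: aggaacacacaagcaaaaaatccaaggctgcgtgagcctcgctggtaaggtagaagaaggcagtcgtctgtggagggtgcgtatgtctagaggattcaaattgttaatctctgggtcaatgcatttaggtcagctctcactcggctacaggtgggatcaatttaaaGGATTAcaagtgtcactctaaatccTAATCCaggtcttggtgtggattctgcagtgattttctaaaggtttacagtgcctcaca
Cnga1: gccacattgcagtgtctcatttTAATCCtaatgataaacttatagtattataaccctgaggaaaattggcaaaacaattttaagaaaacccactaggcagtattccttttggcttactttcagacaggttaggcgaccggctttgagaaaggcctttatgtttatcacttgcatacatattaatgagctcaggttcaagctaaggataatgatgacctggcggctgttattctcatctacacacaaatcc
Sag: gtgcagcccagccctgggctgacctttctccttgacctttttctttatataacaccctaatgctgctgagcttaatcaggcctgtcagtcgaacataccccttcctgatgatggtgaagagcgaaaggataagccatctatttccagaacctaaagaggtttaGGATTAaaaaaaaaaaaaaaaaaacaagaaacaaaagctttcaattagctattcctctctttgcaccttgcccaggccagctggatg
Gnb5: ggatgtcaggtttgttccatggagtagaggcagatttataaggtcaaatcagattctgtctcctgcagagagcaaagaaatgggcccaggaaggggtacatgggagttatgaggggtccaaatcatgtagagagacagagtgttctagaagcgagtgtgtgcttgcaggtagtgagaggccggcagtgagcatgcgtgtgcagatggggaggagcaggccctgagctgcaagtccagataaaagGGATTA
Gucy2f holds the letters 2 times, and the other 3 promoters 1 time each. A match of 6 letters is a description of the sequence, not a site.

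Cone genes moved in both directions. Of the 12 genes of cone phototransduction 9 rose, 2 fell and 1 did not pass, with 5 at least 2-fold higher, 1 at least 2-fold lower and a median log2 difference of 0.46. Opn1mw, the middle-wavelength cone opsin, measured 7.11, 7.24, 6.94, 7.05 and 7.12 at P6 and 12.55, 12.25, 11.89 and 12.31 at P10. All 4 P10 retinas stood far above the narrow P6 range, and the gene rose 35.6-fold (log2 difference 5.16, standard error 0.13, adjusted p = 2.25e-14 in limma). The probe lies at chrX:71396020-71396079 of mm9. Another probe of the gene was higher at P10 without overlap. It was well above background in 1 of 5 P6 and all 4 P10 retinas, so its difference is not given as a size. Opn1sw, the short-wavelength opsin, measured 7.32, 7.50, 7.73, 7.60 and 7.47 at P6 and 7.79, 7.97, 8.09 and 7.83 at P10. The groups touched without overlap, and the difference was 0.40 (adjusted p = 0.00298 in limma). Both opsins were close to their P6 level at P3, with means of 6.73 for Opn1mw and 7.23 for Opn1sw.

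The cone phosphodiesterase subunit Pde6c rose 3.56-fold, the potassium channel subunit Kcnv2 2.83-fold and the cone exchanger Slc24a2 2.9-fold on its brightest probe. The other probes of Slc24a2 gave log2 differences of 0.62 (adjusted p = 0.0858 in limma) and 0.43 (adjusted p = 0.174) and did not pass. The last of these was well above background in 1 of 5 P6 and 2 of 4 P10 retinas. Cone arrestin Arr3 rose 2.14-fold and cone transducin Gnat2 1.45-fold. Gngt2, the gamma subunit of cone transducin, measured 16.28, 16.23, 16.44, 16.45 and 16.47 at P6 and 14.64, 14.87, 14.68 and 14.54 at P10. Every P10 retina was below every P6 retina, and the gene fell 3.23-fold (log2 difference -1.69, adjusted p = 2.02e-11 in limma), after a difference of 0.33 from P3 to P6. The channel subunit Cngb3 fell by 0.55 on the log2 scale (adjusted p = 1.21e-04 in limma).

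Among genes of outer segment structure 11 of 15 rose, Kif17 fell and 3 did not pass, with a median log2 difference of 0.75 and 5 at least 2-fold higher. Abca4, the retinoid transporter of the disc rim, measured 10.59, 10.69, 10.45, 10.47 and 10.15 at P6 and 12.80, 12.56, 12.58 and 12.70 at P10. The groups were apart by more than 1.5 log2 units, and the rise was 4.56-fold (adjusted p = 4.05e-11 in limma). The actin bundling protein gene Fscn2 rose 3.66-fold, the axoneme genes Rp1 and Rp1l1 3.03-fold and 2.29-fold, and Cdhr1, a cadherin at the base of the outer segment, 2.72-fold.

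Prph2 and Rom1 changed less. Prph2, the tetraspanin peripherin-2 of the disc rim, measured 16.43, 16.64, 16.71, 16.66 and 16.59 at P6 and 17.47, 17.11, 16.98 and 17.13 at P10. Its groups did not overlap, and it rose 1.48-fold (adjusted p = 0.00167 in limma). Rom1, its partner in the rim, measured 17.56, 17.22, 17.43, 17.43 and 17.18 at P6 and 17.86, 17.38, 17.48 and 17.39 at P10. The ages overlapped, and the log2 difference of 0.17 did not pass the test (adjusted p = 0.28 in limma). From P3 to P6 Prph2 had differed by 2.003 and Rom1 by 1.29. The motor gene Kif17 differed by -0.23 (adjusted p = 0.0232 in limma) with overlapping groups, and lost its call in 10 of 27 alternative settings. Another probe of Kif17 was higher at P10 by 0.69 (adjusted p = 0.0141 in limma) and was well above background in 0 of 5 P6 and 1 of 4 P10 retinas.

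Genes of the photoreceptor cilium and of transport through it rose by less. Of 24 genes 13 rose, 2 fell and 9 did not pass, none by 2-fold, and the median log2 difference was 0.30. The Bardet-Biedl gene Bbs1 rose 1.79-fold, lebercilin (Lca5) 1.72-fold, the transition zone gene Cep290 1.69-fold, the lipid-binding transport factor Unc119 1.65-fold and Rpgrip1, which anchors the RPGR complex in the connecting cilium, 1.58-fold. Tulp3 fell by 0.31 on the log2 scale. Rpgr fell by 0.23 on its brightest probe (adjusted p = 0.0272 in limma), with overlapping groups and a call lost in 13 of 27 alternative settings. That probe had the opposite sign with the P10 groups of the RNA table, at 0.14, which was not past the threshold. The other probes of Rpgr gave -0.39 without overlap (adjusted p = 4.36e-04 in limma) and -0.10, which did not pass.

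In retinoid handling, the supply and recycling of the chromophore of the opsins, 6 of 10 genes rose, 2 fell and 2 did not pass. Dhrs3, a short-chain dehydrogenase gene whose product reduces retinal, measured 12.51, 12.73, 12.70, 12.63 and 12.60 at P6 and 14.95, 14.58, 14.75 and 14.71 at P10. It was higher in all P10 retinas and rose 4.34-fold (adjusted p = 1.86e-11 in limma). Rdh12, a retinol dehydrogenase of photoreceptors, rose 2.81-fold. Rbp3, the retinoid carrier between photoreceptors and pigment epithelium, measured 15.23, 15.62, 15.85, 16.01 and 16.19 at P6 and 16.97, 16.33, 15.997 and 16.22 at P10, and these values overlapped. Its log2 difference of 0.60 (adjusted p = 0.0397 in limma) was lost in 12 of 27 alternative settings. Crabp1, a retinoic acid binding protein of amacrine cells, fell 1.93-fold, and the dehydrogenase gene Dhrs9 fell by 0.55 on the log2 scale.

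The photoreceptor transcription factors had a median log2 difference of 0.066 over 17 genes, with 8 that rose, 3 that fell and 6 that did not pass. Esrrb, an orphan nuclear receptor of rods, measured 10.98, 10.80, 10.73, 10.97 and 10.99 at P6 and 14.33, 13.99, 14.05 and 13.91 at P10. All P10 values were about 3 log2 units above those of P6, and Esrrb rose 9.04-fold (standard error 0.086 on the log2 scale, adjusted p = 3.59e-14 in limma). The rod determinant Nrl measured 16.96, 16.87, 16.89, 17.02 and 16.81 at P6 and 17.44, 17.17, 17.47 and 17.40 at P10, and Crx measured 13.40, 13.44, 13.51, 13.35 and 13.08 at P6 and 13.95, 13.62, 13.72 and 13.85 at P10. Both were higher in each P10 retina by a small step, with log2 differences of 0.46 for Nrl (adjusted p = 1.63e-04 in limma) and 0.43 for Crx (adjusted p = 0.011). Nr2e3, the rod nuclear receptor that represses cone genes, measured 15.98, 15.54, 15.46, 15.49 and 15.64 at P6 and 16.06, 15.17, 15.57 and 15.57 at P10. The ages overlapped fully and the difference of -0.029 did not pass the test. The nuclear receptors Thrb and Nr1d1 rose by 0.71 and 0.74.

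Prdm1, which holds new photoreceptors back from bipolar fate, measured 12.87, 12.75, 12.38, 12.81 and 12.86 at P6 and 11.42, 11.23, 11.55 and 11.26 at P10. Each P10 retina was below each P6 retina, and Prdm1 fell 2.58-fold (adjusted p = 7.14e-09 in limma). Rxrg, a retinoid receptor of cones, fell 2.11-fold on its brighter probe, while another probe a short way from it gave -0.24 and did not pass. Otx2, which acts upstream of Crx, differed by -0.37 (adjusted p = 0.0492 in limma) with overlapping values, and 14 of 27 alternative settings lost that call.

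**Figure D2:**
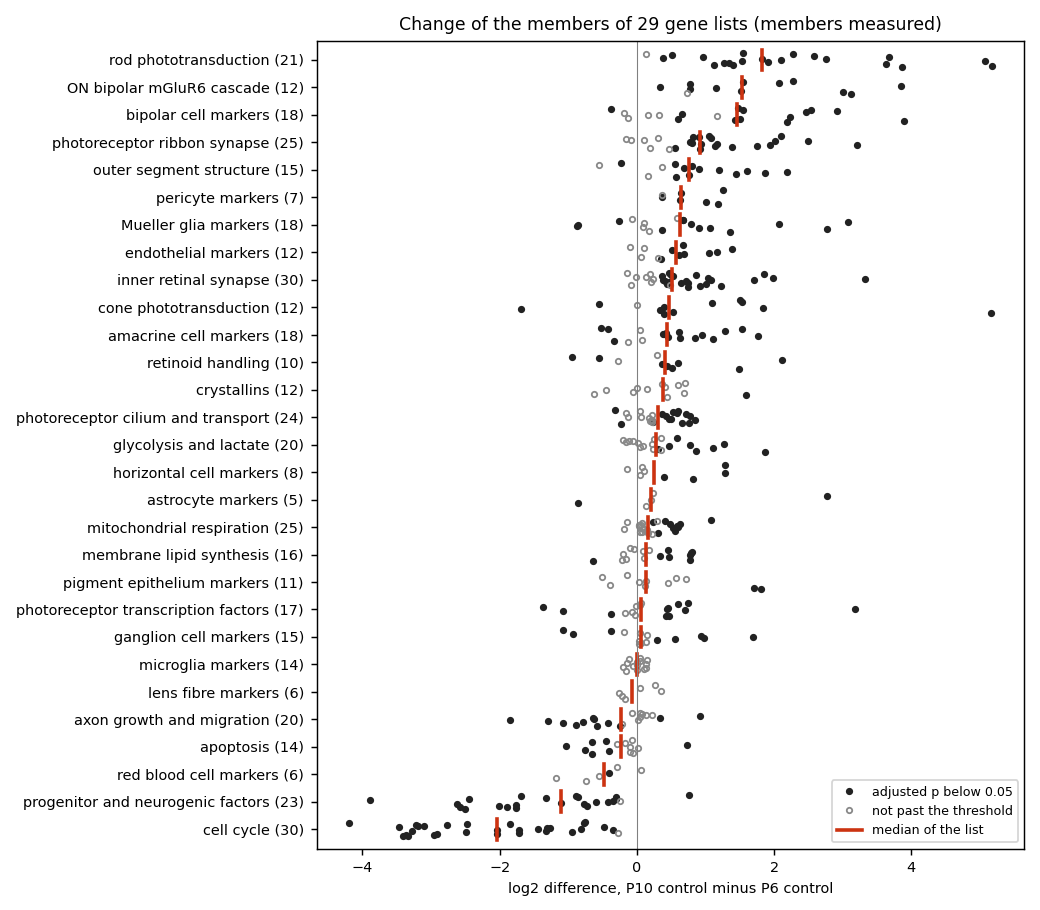
Log2 difference of P10 minus P6 control retinas (x axis) for each measured member of 29 gene lists (y axis, with the number of members), filled where the adjusted p in limma was below 0.05 and open otherwise, with a red bar at the median. Cell cycle and progenitor lists lie lowest, with medians of -2.05 and -1.10, and rod phototransduction highest, with 1.82.

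Genes of the photoreceptor ribbon synapse rose widely. Of 25 genes 19 rose, 0 fell and 6 did not pass, 11 were at least 2-fold higher, 20 did not overlap, and the median log2 difference was 0.92. Cabp4, a calcium-binding protein that tunes the calcium channel at the ribbon, measured 8.58, 8.61, 8.68, 8.80 and 8.61 at P6 and 11.97, 11.71, 11.92 and 11.85 at P10. The 5 P6 values and the 4 P10 values each lay within 0.3 log2 units, and Cabp4 rose 9.22-fold (log2 difference 3.21, adjusted p = 2.97e-08 in limma). Cplx4, a complexin of ribbon synapses, rose 5.62-fold and Mpp4, a scaffold of the photoreceptor terminal, 4.28-fold. The channel subunit Cacnb2 rose 3.85-fold.

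Slc17a7, the vesicular glutamate transporter of photoreceptor and bipolar cell terminals, measured 9.83, 9.73, 9.58, 9.75 and 9.81 at P6 and 11.86, 11.61, 11.74 and 11.79 at P10. It was higher at P10 without overlap and rose 4.03-fold (adjusted p = 3.82e-09 in limma). Bassoon (Bsn), which anchors the ribbon, measured 9.58, 9.80, 10.03, 10.10 and 10.31 at P6 and 11.32, 10.70, 10.69 and 10.82 at P10. P10 replicate 1 was the highest, the groups did not overlap, and the log2 difference was 0.92 (adjusted p = 8.78e-04 in limma). Ctbp2, whose gene also makes the ribbon protein RIBEYE, differed by 0.19 (adjusted p = 0.0698 in limma) and Erc2, an active zone protein, by 0.31 (adjusted p = 0.0522), and neither passed. In 9 of 27 alternative settings each of these 2 did pass.

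On the receiving side, 11 of the 12 genes of the mGluR6 cascade of ON bipolar cells rose, with a median log2 difference of 1.53. Gnb5 and Rgs9bp of this list also stand in the rod list and Gnb3 in the cone list. In a whole retina their values are not particular to bipolar cells. Grm6, the receptor, rose 8.65-fold, Gpr179 7.99-fold and the G protein subunit Gng13 14.4-fold. Among 18 markers of bipolar cells 12 rose, Otx2 fell and 5 did not pass, with 10 at least 2-fold higher and a median of 1.45. Pcp2, an exchange-factor-like protein of rod bipolar cells, measured 11.86, 11.91, 11.64, 11.79 and 11.91 at P6 and 15.96, 15.59, 15.66 and 15.64 at P10. All retinas of an age lay within 0.4 log2 units, and Pcp2 rose 14.8-fold (log2 difference 3.89, adjusted p = 4.71e-13 in limma).

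Prkca, the kinase that marks rod bipolar cells, measured 11.96, 12.005, 12.09, 12.27 and 12.42 at P6 and 14.43, 14.34, 14.26 and 14.34 at P10. It rose 4.57-fold without overlap (adjusted p = 3.54e-11 in limma), and its dimmer probe 2.11-fold. The homeobox gene Sebox rose 7.52-fold, the calcium-binding protein genes Cabp2 and Scgn 4.69-fold and 5.52-fold, and Car8, a carbonic anhydrase-related protein, 5.78-fold.

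Probes of 1 gene name did not always show the same change, and 3 such genes are described here. The brightest probe of Trpm1, the channel at the end of the cascade, stands for the gene here and lies at chr7:71369544-71369603 of mm9. It measured 9.85, 8.79, 8.80, 9.25 and 8.73 at P6 and 9.93, 9.90, 9.33 and 10.10 at P10, with P6 replicate 1 inside the P10 range, and its difference of 0.73 did not pass (adjusted p = 0.101 in limma). A probe at chr7:71413940-71413999 rose by 5.76 (54.2-fold, adjusted p = 4.62e-13 in limma) and one at chr7:71371607-71371666 by 2.06.

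Cabp5, a calcium-binding protein of bipolar cells, measured 9.91, 12.45, 12.24, 12.95 and 13.24 at P6 and 11.95, 12.42, 11.35 and 12.39 at P10 on its brightest probe. P6 replicate 1 was the lowest of all retinas, with a difference of -0.13 (adjusted p = 0.9 in limma), and the other probe rose by 2.68 without overlap. For Rgs9, which switches off transducin, neighbouring probes gave 0.14 each and did not pass, and the probe farther off rose by 1.06 (adjusted p = 2.80e-06 in limma). Which transcripts the probes detect was not tested.

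**Figure D3:**
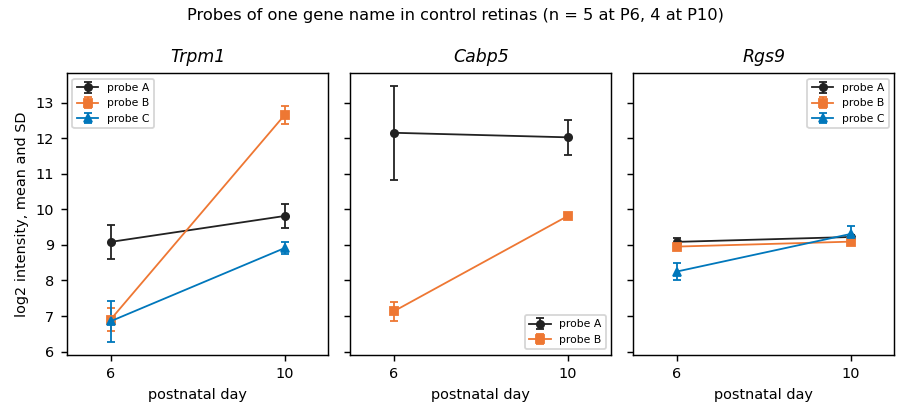
Mean log2 intensity with SD (y axis) at P6 (n = 5) and P10 (n = 4) on the x axis, for each probe of Trpm1, Cabp5 and Rgs9, with probes in order of their P6 level. In each gene at least 1 probe rose by 1.06 or more while the brightest P6 probe differed by 0.73 or less.

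There were 6299 gene names with 2 or more probes of any brightness. Counting only probes well above background in every retina of at least 1 age, 63 gene names had 1 probe or more that rose and another that fell. The gene names with 2 or more such brighter probes are fewer than 6299, so 63 is not a share of that number. With probes of any brightness, an alternative chosen after seeing the data, the number was 72. Of the 63 only Ece2, an endothelin-converting enzyme gene, had both at 2-fold or more, with 1.14 at chr16:20645512-20645571 and -1.54 at chr16:20618872-20618931 of mm9. Stx3, the syntaxin of ribbon synapses, rose by 1.16 on one probe and fell by 0.94 on another (chr19:11850243-11850302 and chr19:11852038-11852097). The argonaute gene Eif2c2 rose by 0.55 and fell by 0.93, the kinesin light chain gene Klc1 rose by 0.51 and fell by 1.03, and Zwint, a kinetochore gene, rose by 0.44 and fell by 0.82. Kctd14, Pa2g4, Cul9, Clip4 and Gfra4 were the others among the 10 genes with the widest gap between probes.

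Genes of inner retinal synapses rose in the main. Of 30 genes 22 rose, 0 fell and 8 did not pass, 8 were at least 2-fold higher and the median log2 difference was 0.51. Gabrr1, the GABA receptor subunit of bipolar cell terminals, measured 10.17, 10.07, 9.92, 9.79 and 9.62 at P6 and 13.40, 13.23, 13.11 and 13.20 at P10. It was more than 2.9 log2 units higher in every P10 retina and rose 10-fold (adjusted p = 4.72e-14 in limma). Slc12a5, the chloride exporter that makes GABA inhibitory, rose 3.61-fold on its brighter probe and the vesicle protein gene Syn1 2.33-fold. The glycine receptor subunit Glra1 was well above background in 0 of 5 P6 retinas and in all 4 P10 retinas, which gives a rise of at least 3.15-fold at the offset of 0 (adjusted p = 2.24e-09 in limma), while the fit with an offset of 50 gave 2.19-fold. Such a bound was taken from the values after loess and Aquantile normalization, while the p-value is that of the main fit. It sets the mean of the P10 retinas against the mean of the P6 values. Each P6 value is first raised to at least the lowest signal well above background in its retina. The other probe of Glra1 rose by 0.52 (adjusted p = 0.022 in limma) with overlapping groups, and was well above background in 0 of 5 P6 and 3 of 4 P10 retinas.

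Among 18 amacrine cell markers 12 rose, 3 fell and 3 did not pass, with a median log2 difference of 0.44. The choline transporter gene Slc5a7 of starburst amacrine cells rose 3.41-fold, the peptide gene Vip 2.9-fold, Calb2 (calretinin) 2.17-fold and Gad1, which makes GABA, 1.94-fold. The neurogenic factors Neurod6 and Neurod2 fell by 0.52 and 0.42 on the log2 scale and the transcription factor gene Tfap2a by 0.33. Of 8 horizontal cell markers 4 rose and 4 did not pass, with Calb1 (calbindin) 2.44-fold, Prox1 2.43-fold and Lhx1 1.76-fold higher.

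Ganglion cell markers had a median log2 difference of 0.060 over 15 genes, 5 of which rose, 3 fell and 7 did not pass. The neurofilament gene Nefh measured 11.32, 11.60, 11.26, 11.22 and 11.17 at P6 and 13.21, 13.01, 13.18 and 12.62 at P10. It rose 3.22-fold without overlap (adjusted p = 1.58e-08 in limma), with Nefm 1.97-fold and the surface antigen gene Thy1 1.92-fold higher. Tubb3, the neuronal tubulin, fell 2.12-fold and Eomes, a T-box factor of ganglion cell subtypes, 1.91-fold, and Isl2 fell by 0.37 on the log2 scale. Pou4f1, which marks most ganglion cells, measured 11.75, 11.71, 11.65, 11.997 and 12.16 at P6 and 12.18, 11.98, 11.82 and 11.56 at P10, and its difference of 0.031 did not pass.

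Mueller glia markers mostly rose, with Sox9, Sox2 and Crym lower. Of 18 genes 10 rose, 3 fell and 5 did not pass, with 5 at least 2-fold higher and a median log2 difference of 0.63. Aqp4, the water channel of Mueller glia endfeet, measured 7.19, 7.21, 7.25, 7.30 and 7.41 at P6 and 10.04, 9.90, 10.08 and 10.16 at P10. Each group lay within 0.3 log2 units, and Aqp4 rose 6.83-fold (log2 difference 2.77, adjusted p = 2.46e-11 in limma). Glul, glutamine synthetase, which clears glutamate, measured 13.000, 12.96, 12.85, 12.93 and 12.90 at P6 and 14.35, 14.14, 14.36 and 14.29 at P10. It was higher in each P10 retina and rose 2.56-fold (adjusted p = 4.24e-11 in limma), after a difference of -0.32 from P3 to P6.

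The potassium channel gene Kcnj10 rose 2.1-fold and clusterin (Clu) 4.2-fold. Rlbp1, the retinaldehyde carrier, rose by 0.36 on the log2 scale. Abca8a, a lipid transporter, was well above background in 0 of 5 P6 retinas and in all 4 P10 retinas, a rise of at least 7.57-fold at the offset of 0 (adjusted p = 1.82e-09 in limma), and the fit with an offset of 50 gave 4.33-fold. Sox9 and Sox2, which progenitors and Mueller glia share, fell by 0.87 and 0.85 on the log2 scale, and Crym by 0.26. Gfap, the filament gene of astrocytes and reactive glia, measured 8.47, 8.65, 8.61, 8.32 and 8.38 at P6 and 8.68, 8.60, 8.67 and 8.50 at P10. These groups overlapped, and the difference of 0.13 did not pass (adjusted p = 0.723 in limma). The filament gene Vim differed by 0.089 and Dkk3 by 0.10, and neither passed.

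Cell cycle genes fell together. Of 30 genes 29 fell, 0 rose and Aurkb did not pass, 23 fell at least 2-fold, 27 did not overlap and the median log2 difference was -2.05. Mki67, the proliferation antigen, measured 12.02, 11.81, 11.93, 11.77 and 12.04 at P6 and 8.47, 8.78, 8.60 and 8.45 at P10. Every P10 retina was more than 2.9 log2 units below every P6 retina, and Mki67 fell 10.1-fold (standard error 0.1 on the log2 scale, adjusted p = 1.23e-13 in limma). Top2a, which untangles replicated DNA, measured 9.70, 9.55, 9.59, 9.64 and 9.72 at P6 and 6.06, 6.45, 6.33 and 6.10 at P10. It fell 10.6-fold without overlap (adjusted p = 1.18e-13 in limma), and its P0 mean was 13.07. With an offset of 50 the fall of Top2a was 6.44-fold. Ccnd1, the cyclin D of retinal progenitors, measured 15.18, 14.93, 14.71, 14.84 and 14.92 at P6 and 11.83, 11.87, 11.68 and 11.84 at P10. It fell 8.62-fold (adjusted p = 4.89e-13 in limma).

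The mitotic kinase gene Pbk fell 18.4-fold, the largest fall among the genes taken by size (chr14:66436224-66436283 of mm9), the ribonucleotide reductase gene Rrm2 11-fold, the mitotic cyclin Ccnb1 10.3-fold on its brightest probe, the ubiquitin-conjugating enzyme gene Ube2c 9.33-fold, the kinase gene Melk 10.4-fold and Uhrf1, which maintains DNA methylation, 10.5-fold. The histone gene Hist1h1b fell 16.7-fold and Hist1h2ab 12-fold, with the doubt that histone genes of a cluster are near copies of each other. Ska1, a kinetochore gene, fell 12-fold and was well above background in only 1 of the 4 P10 retinas, so that the size of its fall depends on values near background. With an offset of 50 the falls were 10.8-fold for Pbk, 6.41-fold for Ska1 and 5.88-fold for Melk. Pcna, the sliding clamp of replication that also serves in repair, fell by only 0.35 on the log2 scale (adjusted p = 0.0076 in limma). Aurkb reached a signal well above background in 0 of the 9 retinas.

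Cell cycle promoters were searched for CCAAT, the letters bound by NF-Y, and for TTTGAA, the letters of the cell cycle homology region, on both strands of the same 250 bases. Promoters were found for 24 of the 30 genes, 25 in all. CCAAT stood in 21 of the 25 (84%), against 33.8% of all promoters, and TTTGAA in 8 of the 25 (32%), against 16% of all. In the rod list 5 of 14 promoters held CCAAT and 2 of 14 held TTTGAA. The 3 genes shown fell most among those whose promoter holds both. They lie at chr11:99024190-99024439 on the minus strand for Top2a, chr7:135716380-135716629 on the minus strand for Mki67 and chr2:164769679-164769928 on the plus strand for Ube2c, in GRCm38.p6 from RefSeq. Capitals mark CCAAT and TTTGAA as read on either strand.
Top2a: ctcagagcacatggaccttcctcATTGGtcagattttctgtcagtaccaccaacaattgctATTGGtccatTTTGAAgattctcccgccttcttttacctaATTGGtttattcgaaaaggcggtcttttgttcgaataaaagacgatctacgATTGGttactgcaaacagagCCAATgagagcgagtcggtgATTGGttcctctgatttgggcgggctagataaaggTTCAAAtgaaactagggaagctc
Mki67: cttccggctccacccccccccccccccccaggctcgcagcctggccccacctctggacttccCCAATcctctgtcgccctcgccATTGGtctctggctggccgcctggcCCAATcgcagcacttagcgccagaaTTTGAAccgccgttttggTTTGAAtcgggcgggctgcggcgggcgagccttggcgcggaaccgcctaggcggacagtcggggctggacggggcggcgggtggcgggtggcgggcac
Ube2c: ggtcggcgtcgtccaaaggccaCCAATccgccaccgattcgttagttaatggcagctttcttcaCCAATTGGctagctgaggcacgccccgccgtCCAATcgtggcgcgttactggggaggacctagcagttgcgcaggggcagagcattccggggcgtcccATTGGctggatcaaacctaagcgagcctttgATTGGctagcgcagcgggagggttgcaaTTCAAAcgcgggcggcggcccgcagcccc
Top2a holds 8 matches of the letters, Mki67 5 and Ube2c 7, and in Ube2c 2 matches of CCAAT on opposite strands overlap.

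Progenitor and neurogenic factors fell with the cell cycle. Of 23 genes 21 fell, 1 rose and 1 did not pass, 12 fell at least 2-fold and the median log2 difference was -1.10. Foxn4, which directs progenitors to amacrine and horizontal fates, measured 11.04, 10.45, 10.74, 10.69 and 11.16 at P6 and 6.79, 6.78, 7.24 and 6.87 at P10. The groups were more than 3 log2 units apart, and Foxn4 fell 14.9-fold (adjusted p = 6.36e-12 in limma). The Notch ligand gene Dll3 fell 6.14-fold, Olig2 5.46-fold, the growth factor gene Fgf15 5.7-fold, the Wnt inhibitor gene Sfrp2 3.38-fold and the Notch target Hes5 4.02-fold. The fall of Olig2 was 3.28-fold with an offset of 50. Gadd45a, a stress gene that arrests the cell cycle, rose by 0.76 on the log2 scale (adjusted p = 1.91e-05 in limma).

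Insm2 and C2cd4b stood among the 12 largest falls with another course. Insm2, a zinc finger factor related to the neuroendocrine factor INSM1, measured 13.38, 13.26, 13.06, 13.10 and 13.36 at P6 and 8.82, 9.21, 9.48 and 9.10 at P10. It fell 16.9-fold (log2 difference -4.08, adjusted p = 1.05e-13 in limma) on its brighter probe and by 1.96 on the log2 scale on the other, while from P3 to P6 the brighter probe had differed by only -0.079, and Insm1 itself fell by 0.30. C2cd4b, which encodes a protein with a C2 calcium-binding domain, measured 11.88, 11.87, 11.92, 11.63 and 11.76 at P6 and 8.23, 8.45, 8.21 and 8.21 at P10. It fell 11.6-fold (adjusted p = 6.44e-14 in limma) after 0.19 from P3 to P6. For both, the change of these days lay below that of P3 to P6 in limma (adjusted p = 3.83e-09 for Insm2 and 1.09e-09 for C2cd4b). The probes lie at chr12:56702946-56703005 and chr9:67608565-67608624 of mm9.

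Among 20 genes of axon growth and migration 10 fell, 2 rose and 8 did not pass, with a median log2 difference of -0.23. Sox11 fell 3.59-fold and Sox4 2.46-fold, both factors of young neurons. The guidance ligand gene Slit2 rose by 0.92 and the adhesion gene L1cam by 0.34 (adjusted p = 0.0458 in limma). The L1cam call was lost in 17 of 27 alternative settings. Dpysl3 differed by 0.018 and did not pass on its brightest probe, and its other probe fell by 0.38 (adjusted p = 0.00118 in limma). Of 14 apoptosis genes 6 fell, 1 rose and 7 did not pass. The death effector genes Bcl2l11 and Bax fell 1.68-fold and 1.57-fold.

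Energy and lipid genes changed in part. Of 20 genes of glycolysis and lactate 8 rose, 0 fell and 12 did not pass. Hk1, the hexokinase of neurons, measured 14.24, 14.37, 14.66, 14.23 and 14.31 at P6 and 16.47, 16.10, 16.26 and 16.06 at P10. It rose 3.63-fold without overlap (adjusted p = 9.94e-11 in limma). Hk2, the hexokinase of photoreceptors, rose 1.81-fold, the enolase gene Eno2 2.41-fold and the aldolase gene Aldoc 2.16-fold, while Ldha differed by 0.023 and Aldoa by 0.24 and did not pass. Of 25 measured genes of mitochondrial respiration, of 26 in the list, 10 rose and 15 did not pass, with a median of 0.17. The mitochondrial creatine kinase gene Ckmt1 rose 2.11-fold and Cox5a 1.54-fold, and Mdh2 differed by 0.10 and did not pass.

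Of 16 genes of membrane lipid synthesis 7 rose, 1 fell and 8 did not pass. Elovl4, which makes the very long fatty acids of outer segments, rose 1.71-fold, Mfsd2a, an importer of docosahexaenoic acid, 1.71-fold, Adipor1 1.73-fold and the desaturase gene Scd1 1.74-fold. Elovl2, which acts earlier in that pathway, fell 1.56-fold. Of 12 crystallins Cryab, the small heat shock protein alpha B-crystallin, rose 3.01-fold (adjusted p = 0.00334 in limma) and 11 did not pass.

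The course after P6 was set against that before it, an interval of 4 days against the 3 days since P3. The change from P6 to P10 was above that from P3 to P6 for 2474 probes (6.30%) and below it for 2441 (6.21%) in limma. Both changes share the P6 retinas. These counts are of signed differences, so a gene that fell more in the later interval counts as below. In the rod list the later difference was above the earlier one for 4 of 21 genes and below it for 7, and in the transcription factor list 2 and 6 of 17. For the mGluR6 cascade these counts were 7 and 1 of 12, for inner synapses 7 and 0 of 30, for amacrine markers 7 and 1 of 18 and for Mueller glia markers 7 and 3 of 18. In the cell cycle list, which fell in both intervals, 12 of 30 genes had a lower difference in the later one and 6 a higher one. Prph2 differed by 2.003 in the earlier interval and 0.57 in the later, Opn1mw by 0.36 and 5.16 and Aqp4 by 0.23 and 2.77. For Opn1mw the later change was larger by 4.79 (adjusted p = 1.09e-09 in limma) and for Prph2 it was smaller by 1.44 (adjusted p = 1.62e-04).

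**Figure D4:**
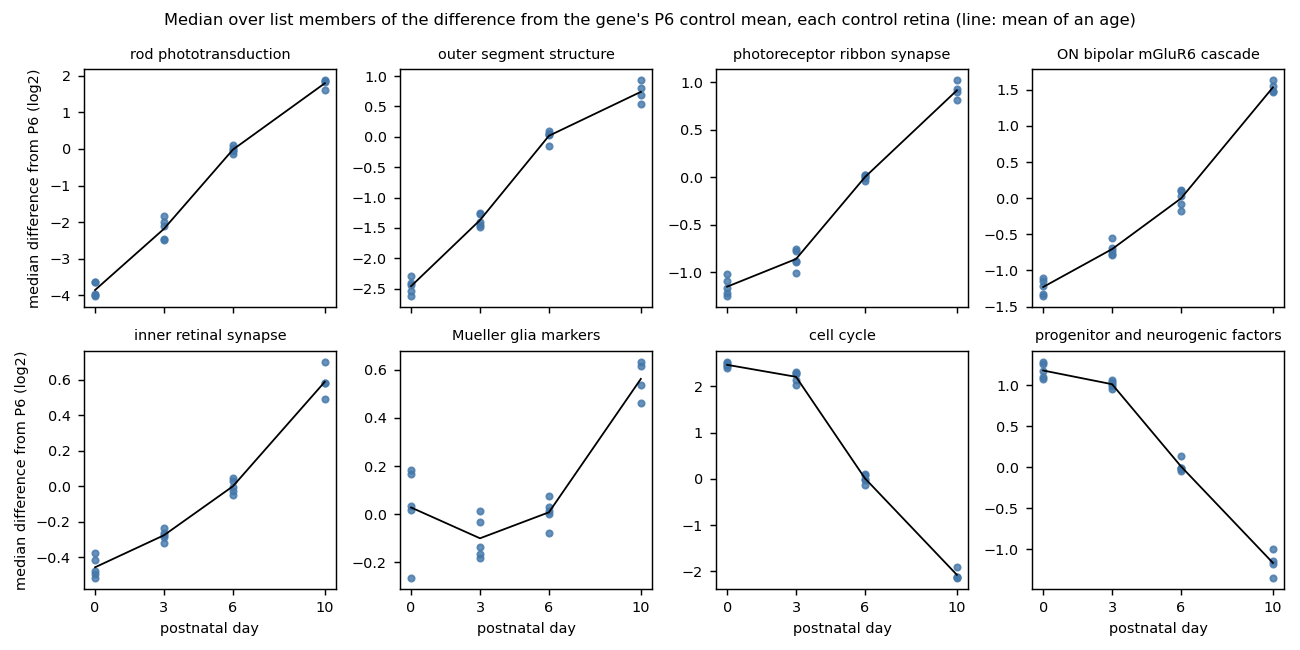
Median over the members of 8 gene lists of the log2 difference from each gene's P6 control mean (y axis), for each control retina at P0, P3, P6 (n = 5 each) and P10 (n = 4) on the x axis, with lines through the means. Rod and outer segment lists climb from P0 on, Mueller glia markers lie near 0 up to P6 and at 0.46 to 0.63 at P10, and cell cycle genes fall to -1.91 to -2.14 at P10.

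Crb2, of which the controls carry 1 floxed allele, measured 12.22, 12.14, 12.22, 12.21 and 12.20 at P6 and 12.46, 12.49, 12.30 and 12.51 at P10 with a probe beyond the deleted part, which does not report the deletion. It was slightly higher at P10, by 0.25 (adjusted p = 0.0138 in limma). In the Crb2 cKO retinas on the same arrays, 11527 of the 11570 probes past the threshold in controls had the same sign from P6 to P10, and 9320 of these also passed there. Gnat1 differed by 4.78 in cKO retinas, Glul by 0.99 and Mki67 by -3.12. A difference of the P6 to P10 change between the genotypes passed limma for 0 probes, with 329 at an unadjusted p below 0.05. That fit took no account of the array that a control and a cKO retina share. Once shared arrays and the dye entered the limma model, 0 probes passed again and 1239 had an unadjusted p below 0.05. Both unadjusted counts are below the 0.05 share of the 39283 probes that chance alone would give. The 0 is therefore no evidence that the genotypes change alike.

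Markers of other cell types were followed in the same retinas. In limma 0 of 14 microglia markers passed the test, with 0 at an unadjusted p below 0.05, and 0 of 6 lens fibre markers passed, with 0 at that level and only 2 well above background in every retina of at least 1 age. Of 12 endothelial markers 8 rose, among them the VEGF receptor gene Flt1 2.62-fold, Esam 2.25-fold and the tight junction gene Cldn5 2.06-fold, and of 7 pericyte markers 6 rose, with Abcc9 2.39-fold, Pdgfrb 2.26-fold and Rgs5 2.01-fold. Of 5 astrocyte markers Aqp4, shared with Mueller glia, rose, Pdgfra fell 1.82-fold and 3 did not pass. The summed level of the endothelial list was 14.36 to 14.88 on the log2 scale at P6 and 14.86 to 15.01 at P10.

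Of 11 pigment epithelium markers Rpe65 and Lrat, which regenerate the chromophore there, rose and 9 did not pass. Rpe65 measured 8.03, 8.01, 7.98, 7.90 and 7.79 at P6 and 10.53, 10.77, 7.45 and 10.27 at P10. P10 replicate 3 lay below the P6 retinas and the other 3 P10 retinas above them. The log2 difference of Rpe65 was 1.81 (adjusted p = 0.00373 in limma), or 2.58 without P10 replicate 3. It was 0.60 with the P10 groups of the RNA table, and 3 of 27 alternative settings did not keep the call. Lrat measured 6.10, 5.95, 5.85, 5.74 and 5.38 at P6 and 8.10, 8.01, 5.89 and 8.04 at P10, with the same P10 retina low. It was well above background in 1 of 5 P6 and 3 of 4 P10 retinas, so its difference is not given as a size. The melanin genes Tyr, Tyrp1, Pmel and Dct were well above background in all 9 retinas, and Best1 in none. The summed level of the 11 markers ran from 13.71 to 14.46 at P6 and from 13.02 to 15.23 at P10. Without P10 replicate 3, 5141 probes rose and 5357 fell. What pigment epithelium left on the retina adds to Dhrs3, Rbp3 and the other retinoid genes was not tested.

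Of 6 red blood cell markers Slc4a1 fell by 0.41 (adjusted p = 0.0431 in limma), a call lost in 15 of 27 alternative settings, and 5 did not pass. Hbb-b1, a beta globin gene with near copies, measured 14.48, 13.18, 13.19, 13.03 and 13.06 at P6 and 12.37, 11.95, 13.29 and 11.24 at P10. P6 replicate 1 was high, P10 replicate 3 lay above the other P6 retinas, and the difference of -1.17 did not pass (adjusted p = 0.119 in limma). The blood content of the retinas was not tested as a part of any result above.

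**Figure D5:**
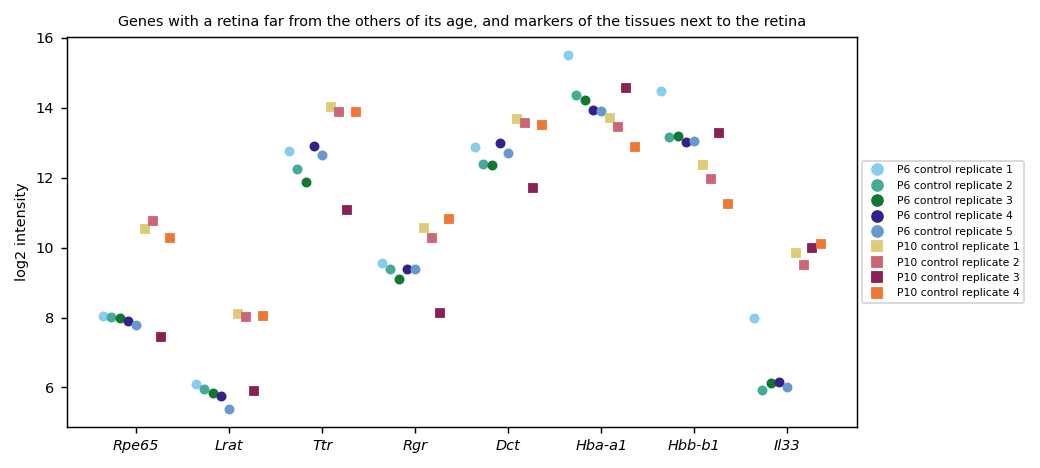
Log2 intensity (y axis) in each of the 9 control retinas, P6 as circles and P10 as squares with 1 colour per retina, of 5 pigment epithelium markers, 2 globin genes and Il33. P10 replicate 3 is low in Rpe65 and Lrat, at 7.45 and 5.89, and P6 replicate 1 is high in Hbb-b1 and Il33, at 14.48 and 7.98.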

How the data were processed

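Total RNA of single retinas was labelled with Cy3 or Cy5 and hybridised to Agilent 4x44K v2 mouse arrays, read with Feature Extraction 9.5.3.1. The authors deposited for each array the spot intensity as the mean over pixels, the median background intensity, the processed intensity of the Agilent software and flags for spot quality. The deposited log2 intensities were made by the authors with normexp correction and quantile normalization in limma, and served as an alternative here. Columns with the authors' own tests, fold changes and ratios were not used. One array that the authors left out was not analysed here.

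From the scanner intensities, 1377 control features and 158 features called saturated or non-uniform on any array were left out of 44397, which left 42862. Normexp (offset 0, since the methods give none) and quantile normalization over 38 channels were followed by averaging the spots of a probe. In R 4.3.3, with limma 3.58.1 and the package data.table in version 1.17.8, the fit gave 1 mean per age for the 19 control retinas, and the contrast P10 minus P6 was adjusted by the Benjamini-Hochberg method over 39283 probes. Errors given as ± are SD, and standard errors are those of limma. No filter on low values entered the test. The number of arrays limits the precision.

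A gene is represented by its probe with the highest mean over all retinas, with gene names as in the files. An accession of the reference table was found for 25966 of the probes. The members and gene lists were chosen with earlier results of these data known, so no list is independent evidence. Genes named in the text were the 12 largest rises and 12 largest falls among probes past the threshold, well above background where brighter and without overlap, up to 5 leading and a few opposed or unchanged members of each list, a set of well-known markers and the 10 largest opposite probe pairs. Genes added for their promoters (Gucy2f, Cnga1, Sag, Gnb5 and Ube2c) and for an outlying value were chosen after their values were seen. Some genes that the rule names are not reported here. The limma fit of the contrast was tested on simulated data. The replicate numbers were checked for pairing through the correlation of deviations from the group means, which lay between -0.058 and 0.073 for same-numbered retinas. Alternatives were another offset, loess with Aquantile, the processed intensities, the deposited log2 values, other spot and brightness filters, dye, slide, replicate number or Xist level in the fit, other samples in the fit, the methods' t-test, the P10 groups of the RNA table and each retina left out in turn.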

Additional observations from a re-analysis of the deposited data

Results flagged for a closer look

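In single genes, 1 retina stood apart from the others of its age in 17 of 316 sets of a named gene and an age, by the gap to its nearest neighbour over the range of the group, and chance alone gives such a gap in about 1 of 20 sets. P10 replicate 3 was apart in 6 of the 17 and P6 replicate 1 in 3.

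In P10 replicate 3, Rpe65 (7.45 against 10.27 to 10.77 in the other P10 retinas) and Lrat (5.89 against 8.01 to 8.10) were low. Cdhr1 (16.52 against 15.97 to 16.03) and Slc5a7 (9.986 against 9.704 to 9.739) were high there, and Hist1h2ab (10.01 against 10.07 to 10.08) and Tulp3 (9.703 against 9.806 to 9.811) low. In P6 replicate 1, Il33 (7.98 against 5.92 to 6.16), Gucy2f (7.85 against 5.81 to 6.35) and Hbb-b1 (14.48 against 13.03 to 13.19) were high.

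The remaining 8 were spread over other retinas. C2cd4b was high (8.445) and Bcl2l11 low (5.886) in P10 replicate 2, and Clu was high (15.44) in P10 replicate 4. Crb2 was low (12.14) in P6 replicate 2, Prdm1 (12.38) in P6 replicate 3, Prox1 (8.82) in P6 replicate 4, and Calb2 (10.38) and L1cam (7.911) in P6 replicate 5. No cause of these values was tested.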

How the results depend on the processing

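The 4 counts of probes that rose or fell, at any size or at least 2-fold, stayed within 1.5 times their value in most alternatives. Exceptions were the slide as a fixed block, with 3236 probes that fell (against 5831), the slide with both ages alone, with 1521 that rose (against 5739) and 1171 that fell, and the replicate block, with 3577 that rose and 3180 that fell. The slide with both ages has 3 P6 retinas and 1 P10 retina, so the lone P10 retina is assumed to vary like the others. With the slide as a fixed block the difference comes from that slide too, and Gucy2f differed by 3.38 in both settings. Their log2 differences are therefore 1 estimate and not separate checks. The replicate numbers do not pair the retinas, and the replicate block took 16 calls from the 158 named genes. Leaving out each retina in turn gave 5141 to 5692 probes that rose, 5195 to 5716 that fell, 914 to 1009 at least 2-fold higher, 695 to 767 at least 2-fold lower, 3641 to 4533 whose change differed from that of P3 to P6 (against 4915) and 46 to 62 genes with opposite probes (against 63). That last count was 1 where both probes had to change 2-fold. The change from P6 to P10 differed between the genotypes for 0 to 2 probes with a retina left out, and the 2 came without P10 replicate 3. A random block for the array with dye in the fit gave 0 in limma, with 1239 at an unadjusted p below 0.05. The P10 groups of the RNA table gave 5224 probes that rose and 5723 that fell, and 84.3% of the calls were shared. Rpgr had the opposite sign there (0.14, adjusted p = 0.716, against -0.23), and Aurkb, not called otherwise, passed with 1.23 (adjusted p = 0.0417) with the slide as a fixed block, although it was at background in all retinas. The cause was not tested. Otherwise Slc4a1, L1cam, Otx2, Rpgr, Rbp3 and Kif17 lost their calls in 10 or more of 27 settings. With the slide as a fixed block 14 of 29 list medians moved by more than the SD between retinas, 14 of the 158 named genes lost their calls and 55.4% of the called probes were called again. On the slide with both ages alone these were 14 of 29, 44 of 158 and 19.5%. In both settings 11537 of the 11570 called probes had the same sign, and the probes at least 2-fold higher and lower numbered 1324 and 891 with the block and 1094 and 841 on that slide, against 929 and 719. The median of a list kept its sign in 768 of 783 cases, and the exceptions were lens fibre, microglia and pigment epithelium lists. Signals near background limit the size of a fold. An offset of 50 moved that of 11 named genes by over 1.5 times (Kcnj14, Il33, Melk, Ska1, Slc24a1, Glra1, Abca8a, Pbk, Top2a, Olig2 and Gucy2f), all to a smaller fold. The processed intensities moved 11 to a larger one, the same genes with Lrat in place of Kcnj14, for example 33.3-fold for Pbk and 26.6-fold for Ska1. The P10 groups of the RNA table moved 3 to a smaller fold, namely Drd4 (27.4-fold), Rpe65 (1.51-fold) and Lrat. Each of the slide settings moved 5, namely Cabp5, Aurkb, Lrat, Rpe65 (6.2-fold) and Gucy2f (10.4-fold). Leaving out P10 replicate 3 moved Rpe65 to 5.99-fold.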
